A study of Mus musculus with 15 samples.

Results

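The transcripts described here are those of 7 genes that the mature beta cell normally keeps low, or that are read as marks of a beta cell losing its identity: Ldha, Slc16a1, Hk1, Acot7, Oat, Aldh1a3 and Neurog3. They were taken by gene name from a table of 48709 genes, and all 7 passed the filter on low counts that left 16554 genes for testing. The RNA came from pancreatic islets of female NOD mice (NOD/ShiLtj), an inbred strain in which leukocytes infiltrate the islets and destroy the beta cells. Islets were isolated by collagenase digestion, separated on a gradient and hand-picked, and 15 mice were sequenced, 3 at each of 5 ages spaced by 2 weeks from 4 to 12 weeks. No mouse was treated and no other strain served as a control, so each age was compared with another age of the same strain. The islets were not sorted, and each library therefore held every cell type that came with them. Every library was polyA-enriched bulk RNA. No preparation date or batch was given for any mouse.

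Beta cells couple glucose to insulin release by sending nearly all of the pyruvate made in glycolysis into the mitochondria. Lactate dehydrogenase A, encoded by Ldha, and the monocarboxylate transporter MCT1, encoded by Slc16a1, would let lactate and pyruvate leave or enter instead, and hexokinase 1, encoded by Hk1, would phosphorylate glucose at fasting concentrations because of its high glucose affinity. These genes, with the acyl-CoA thioesterase Acot7 and the ornithine aminotransferase Oat, are called disallowed because most tissues express them and mature beta cells repress them. Aldh1a3, a retinaldehyde dehydrogenase, and Neurog3, the transcription factor that commits pancreatic progenitors to the endocrine lineage, are used as marks of beta-cell dedifferentiation. Leukocytes, in contrast, use glycolysis and lactate export heavily when activated and express several of the disallowed genes.

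The library totals were 25407492 to 41616275 counted reads, with a median of 28004882, so that 3 counts corresponded to 0.0754 to 0.128 CPM, the normalised read count scaled to the size of its library. Beta-cell markers were abundant throughout, with a summed level of 241730 to 269800 CPM over 10 genes at 4 weeks and of 123830 to 155980 CPM at 12 weeks. Against that background the leukocyte markers, 22 genes of T cells, B cells and myeloid cells together with Ptprc, summed to 47.6 to 241 CPM at 4 weeks and to 2014 to 2378 CPM at 12 weeks. The library of 12-week replicate 1 also held intestinal transcripts, at a summed level of 315 CPM against 33.1 and 41.2 CPM in the other 12-week mice. In bulk RNA, fewer cells of a type and less RNA per cell cannot be told apart, and this holds for every level below.

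In mm10 coordinates, Ldha (ENSMUSG00000063229) lay on the plus strand at chr7:46841475-46855627 and Slc16a1 (ENSMUSG00000032902) on the plus strand at chr3:104638668-104658462. Hk1 (ENSMUSG00000037012) lay on the minus strand at chr10:62268855-62379908, Acot7 (ENSMUSG00000028937) on the plus strand at chr4:152178134-152271855 and Oat (ENSMUSG00000030934) on the minus strand at chr7:132557478-132576398. Aldh1a3 (ENSMUSG00000015134) was on the minus strand at chr7:66390890-66427517 and Neurog3 (ENSMUSG00000044312) on the plus strand at chr10:62133090-62134763. All 7 are annotated as protein-coding genes.

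For 6 of the 7 genes, the 250 bases before a RefSeq transcription start (GRCm38.p6) were read for 4 short motifs on both strands, with overlapping matches of a motif counted once. These were ACGTG, a form of the core that hypoxia-inducible factors bind, and CACGTG, the E-box of MYC and related factors that contains it. The others were TGACGT, part of the cyclic AMP response element, and GGGCGG, the GC box. GCGTG, another form of the hypoxia core, was not counted and also stands in the Neurog3 region. The start regions of the lactate pair are shown because they held the ACGTG core, and that of Neurog3 because it held none of the 4 motifs. Capitals mark ACGTG on either strand, extended to CACGTG where the E-box is complete, and each sequence is written 5′ to 3′ on the gene's own strand. The Ldha region is chr7:46845554-46845803, the Slc16a1 region chr3:104638414-104638663 and the Neurog3 region chr10:62132840-62133089, all on the plus strand.
Ldha: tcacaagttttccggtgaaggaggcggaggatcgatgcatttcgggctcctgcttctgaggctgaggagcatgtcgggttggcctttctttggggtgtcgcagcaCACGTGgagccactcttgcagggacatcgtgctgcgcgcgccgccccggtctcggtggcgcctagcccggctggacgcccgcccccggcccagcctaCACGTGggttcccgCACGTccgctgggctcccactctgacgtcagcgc
Slc16a1: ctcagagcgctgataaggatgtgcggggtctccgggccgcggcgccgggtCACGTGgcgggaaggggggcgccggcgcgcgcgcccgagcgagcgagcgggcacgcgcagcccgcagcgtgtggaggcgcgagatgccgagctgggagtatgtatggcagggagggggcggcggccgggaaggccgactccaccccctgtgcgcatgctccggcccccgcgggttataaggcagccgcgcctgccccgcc
Neurog3: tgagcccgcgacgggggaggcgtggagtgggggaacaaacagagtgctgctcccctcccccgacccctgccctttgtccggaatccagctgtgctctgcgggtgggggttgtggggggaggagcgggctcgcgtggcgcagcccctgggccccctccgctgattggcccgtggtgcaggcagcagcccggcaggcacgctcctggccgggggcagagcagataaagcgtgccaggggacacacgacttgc
The Ldha region held 3 ACGTG cores, of which 2 were complete E-boxes, besides 1 TGACGT and 2 GGGCGG. Among 32851 start regions of the same length, 16.6% held at least 1 ACGTG and 0.244% at least 3, while 0.429% held at least 2 CACGTG. The Slc16a1 region held 1 CACGTG, which was found in 6.02% of all regions, and 1 GGGCGG, which was found in 32.7%. The Acot7 region held 1 GGGCGG and none of the other motifs, and none of the 4 motifs stood in the regions of Oat and Hk1 or before a further RefSeq start of Ldha. These matches are a description of the sequence and no binding was measured.

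Ldha, the enzyme that turns pyruvate into lactate, showed the largest difference between 4 and 12 weeks among the 7. Its normalised read count in the 3 mice was 36.8, 20.6 and 14.8 CPM at 4 weeks, 20.7, 23.5 and 28.5 CPM at 6 weeks, and 21.3, 60.5 and 69.5 CPM at 8 weeks. It was 160.3, 136 and 82.1 CPM at 10 weeks and 161, 107 and 152 CPM at 12 weeks. All 6 mice of 10 and 12 weeks were above all 9 younger mice, as they were for 9.83% of all genes tested, and at 8 weeks 1 mouse had a level of the younger animals while the others lay between the age extremes. The mean was 24.1 ± 11.4 CPM (SD, n = 3) at 4 weeks and 139.9 ± 28.8 CPM (SD, n = 3) at 12 weeks. The processed pseudogenes Ldha-ps and Ldha-ps2 had 0 counts. How reads that match both Ldha and a pseudogene were assigned was not tested, and pseudogenes under other names were not examined.

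Slc16a1, which encodes the transporter that carries lactate and pyruvate across the plasma membrane, was low and followed the same order. Its level was 3.26, 1.92 and 1.23 CPM in the 4-week mice, 0.832, 1.37 and 2.52 CPM at 6 weeks, and 1.93, 3.89 and 5.61 CPM at 8 weeks. The 10-week mice had 12.6, 9.95 and 5.68 CPM and the 12-week mice 13.4, 9.73 and 12.1 CPM. Again all 6 of the oldest mice were above the 9 younger ones, as for 9.83% of all genes tested. The lowest 10-week mouse, at 5.68 CPM, was only just above the highest 8-week mouse, at 5.61 CPM, with 171 and 157 reads. That 10-week mouse was also the lowest of its age for Ldha. At 4 and 6 weeks the Slc16a1 levels rested on 21 to 87 reads per mouse.

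Hk1, the high-affinity hexokinase of most tissues, was at 21.4, 16.3 and 14.3 CPM at 4 weeks and at 18.03, 17.7 and 21.5 CPM at 6 weeks. It was at 14.6, 26.1 and 30.03 CPM at 8 weeks, 56.7, 49.2 and 33.8 CPM at 10 weeks, and 44.1, 43.9 and 56.0 CPM at 12 weeks. The 6 mice of 10 and 12 weeks were again above all 9 younger mice, and the 8-week mice were spread from near the lowest of the young levels to just under the lowest 10-week level. The antisense gene Hk1os shares 157 of the 8532 exonic bases of Hk1 and had 57 counts against 13995 over all mice.

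Acot7, which cleaves long-chain acyl-CoA to free fatty acids, was at 16.8, 10.0 and 9.66 CPM at 4 weeks, 14.2, 13.2 and 17.2 CPM at 6 weeks, and 12.1, 16.5 and 18.2 CPM at 8 weeks. At 10 weeks it was at 32.2, 25.9 and 22.1 CPM and at 12 weeks at 30.6, 18.8 and 25.4 CPM. All 6 mice of 10 and 12 weeks were above all 9 younger mice here too, but the lowest 12-week mouse was only just above the highest 8-week mouse.

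Oat, the mitochondrial enzyme that links ornithine to proline and glutamate, had a course of its own, with its lowest levels at 6 weeks. It was at 41.5, 37.8 and 40.2 CPM at 4 weeks and at 26.0, 24.1 and 22.98 CPM at 6 weeks, so that all 6-week mice were below all 4-week mice. The 8-week mice had 24.0, 32.5 and 33.0 CPM, the 10-week mice 64.0, 52.6 and 34.6 CPM, and the 12-week mice 61.7, 53.3 and 59.7 CPM. The 12-week levels were above every 4-week level, while 1 of the 3 10-week mice stayed below them. Oat lies inside the region the table gives for Fgfr2 but shares 0 exonic bases with it.

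Aldh1a3 was near the limit of what these libraries measure well, with 22 to 61 reads per mouse. Its level was 2.25, 1.03 and 1.59 CPM at 4 weeks, 1.82, 1.26 and 2.40 CPM at 6 weeks, 1.02, 0.784 and 1.29 CPM at 8 weeks, 0.941, 1.31 and 1.89 CPM at 10 weeks, and 1.13, 1.71 and 1.01 CPM at 12 weeks. The 4-week and 12-week mice overlapped and no age stood apart from all others.

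Neurog3 was measured at 4.72, 3.76 and 3.94 CPM at 4 weeks, 5.07, 5.84 and 5.64 CPM at 6 weeks, and 4.71, 3.39 and 4.00 CPM at 8 weeks. The 10-week mice had 2.39, 4.65 and 3.86 CPM and the 12-week mice 3.31, 3.61 and 2.36 CPM. All 6-week mice were above all 4-week and all 8-week mice, and all 12-week mice were below all 4-week mice. Neurog3 shares 273 of its 1674 exonic bases with 2010107G23Rik on the opposite strand, which had 6026 counts against the 1804 of Neurog3, and since no source used here states that counting used the strand, reads from the shared stretch cannot be told apart.

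**Figure D1:**
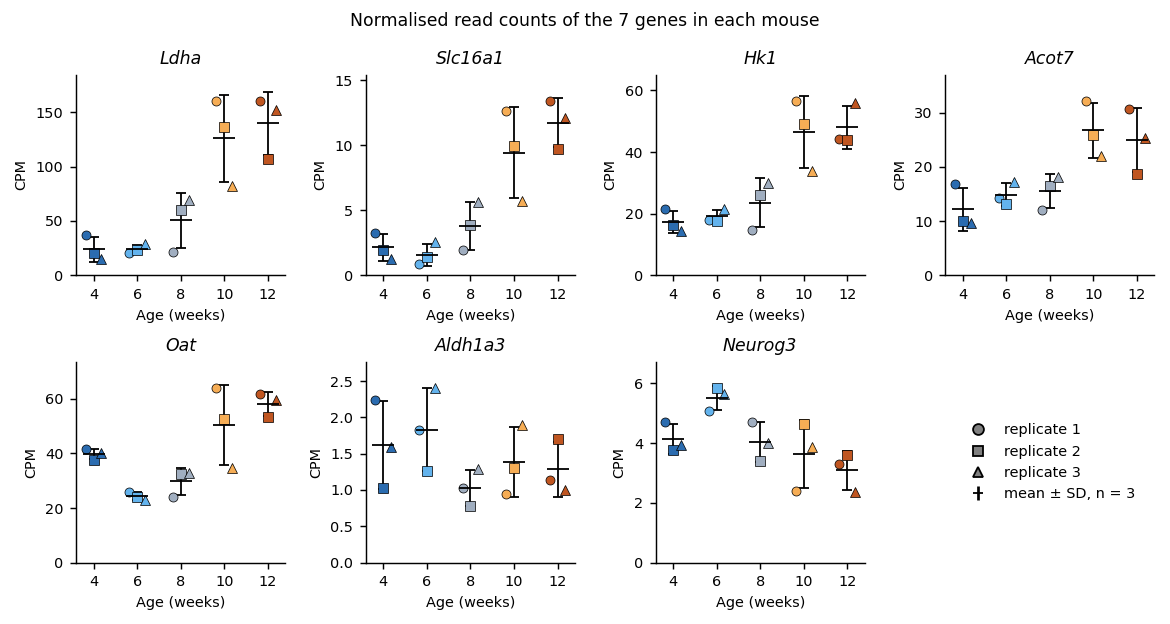
Normalised read counts (CPM, y axis, starting at 0) of each of the 7 genes in every mouse against age in weeks (x axis); points are mice, horizontal bars and whiskers the mean ± SD of 3 mice. Ldha, Slc16a1, Hk1 and Acot7 were higher in all 6 mice of 10 and 12 weeks than in all younger mice, Oat had its lowest mean at 6 weeks, and the ages overlapped for Aldh1a3. For Slc16a1 and Acot7 the lowest older mouse was only just above the highest younger mouse.

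Levels of different genes were compared on the deposited TPM values, which scale each gene by its length as well as by the library. At 4 weeks the order was led by Oat at 32.5 ± 2.77 TPM (SD, n = 3), followed by Ldha at 14.1 ± 7.23 TPM and Acot7 at 11.1 ± 4.10 TPM, whose ranges overlapped. Neurog3 at 5.19 ± 0.842 TPM and Hk1 at 3.93 ± 0.970 TPM came next and overlapped, as did Slc16a1 at 0.937 ± 0.485 TPM and Aldh1a3 at 0.682 ± 0.282 TPM at the low end. At 12 weeks Ldha led at 107 ± 24.1 TPM, above Oat at 62.1 ± 6.55 TPM, Acot7 at 29.5 ± 6.96 TPM and Hk1 at 14.2 ± 3.0 TPM, with no overlap between neighbours in this order. Slc16a1 at 6.67 ± 1.13 TPM and Neurog3 at 5.01 ± 0.811 TPM overlapped, and Aldh1a3 was last at 0.694 ± 0.181 TPM. Ldha first had the highest mean at 8 weeks, at 34.3 ± 18.9 TPM against 27.9 ± 6.65 TPM for Oat, where the ranges of both genes overlapped.

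Between the age extremes, 5 of the 7 genes were upregulated at 12 weeks and none was downregulated (edgeR quasi-likelihood test, Benjamini-Hochberg adjusted p under 0.05 over all genes tested). Of all genes tested, 53.5% were called in this comparison, 26.3% as higher and 27.2% as lower. In the 5 called genes all 12-week mice were above all 4-week mice, as in 30.3% of all genes. The same 5 passed a test for a difference between any ages, with adjusted p of 0.000660 to 0.00510, against 56% of all genes. Ldha was higher by 2.54 ± 0.43 on the log2 scale (SE, adjusted p = 0.000617 by edgeR), which is a 5.82-fold difference. Slc16a1 was higher by 2.46 ± 0.48 (SE, adjusted p = 0.00127 by edgeR), a 5.49-fold difference. Both act on lactate, and these were the largest of the 7 fold changes. Hk1 was higher by 1.47 ± 0.25 (SE, adjusted p = 0.000683 by edgeR) and Acot7 by 1.04 ± 0.25 (SE, adjusted p = 0.00384 by edgeR). Oat was higher by 0.55 ± 0.18 (SE, adjusted p = 0.0203 by edgeR), a 1.46-fold difference that stayed under a fold change of 1.5. The call for Oat was lost when 4-week replicate 2 or 3 or 12-week replicate 1 or 3 was left out, with adjusted p of 0.0646, 0.0519, 0.0578 and 0.0550 by edgeR. The marks of dedifferentiation did not pass the test. Aldh1a3 differed by -0.34 ± 0.36 (SE, adjusted p = 0.446 by edgeR), and Neurog3 differed by -0.42 ± 0.24 (SE, adjusted p = 0.147 by edgeR) although its 3 12-week mice were all below the 3 4-week mice, as were those of 33.9% of all genes tested. Without 12-week replicate 1, which held the intestinal transcripts, Ldha was higher by 2.43, Slc16a1 by 2.35, Hk1 by 1.53 and Acot7 by 0.86, each still past the threshold.

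The difference between the age extremes was not spread evenly over the intervals. From 4 to 6 weeks 0 of the 7 genes and 0.0906% of all genes were called. The member nearest to a call was Oat, which differed by -0.71 ± 0.18 (SE, unadjusted p = 0.00179, adjusted p = 0.179 by edgeR). Its 6-week mice were all below its 4-week mice, as in 9.28% of all genes. It was the only one of the 7 with an unadjusted p under 0.05, against 8.67% of all genes, and it was called by DESeq2 and by the exact test of edgeR, as given with the other settings. Neurog3 differed by 0.41 ± 0.23 (SE, adjusted p = 0.697 by edgeR), with all 6-week mice above all 4-week mice, as in 8.34% of all genes.

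From 6 to 8 weeks 0 of the 7 and 0 of all genes tested were called by edgeR, and DESeq2 called 0 of the 7 as well. At an unadjusted p under 0.05, 3 of the 7 passed, against 18% of all genes. These were Slc16a1, which differed by 1.28 ± 0.48 (SE, adjusted p = 0.212 by edgeR), Ldha, by 1.06 ± 0.41 (SE, adjusted p = 0.223 by edgeR), and Aldh1a3, by -0.82 ± 0.37 (SE, adjusted p = 0.269 by edgeR). In all 3 cases the mice of both ages overlapped. The 8-week mice were below all 6-week mice for Neurog3, as for 11.7% of all genes, with a difference of -0.45 ± 0.23 (SE, adjusted p = 0.318 by edgeR).

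From 8 to 10 weeks 4 of the 7 genes rose, against 8.4% of all genes tested as higher and 16.8% in either direction. Ldha was higher by 1.32 ± 0.41 (SE, adjusted p = 0.0462 by edgeR), Hk1 by 0.98 ± 0.25 (SE, adjusted p = 0.0299 by edgeR), Acot7 by 0.78 ± 0.24 (SE, adjusted p = 0.0466 by edgeR) and Oat by 0.76 ± 0.18 (SE, adjusted p = 0.0271 by edgeR). Slc16a1 was higher by 1.30 ± 0.46 and just missed the threshold (SE, adjusted p = 0.0635 by edgeR). In all 5 the 10-week mice were above all 8-week mice, for Slc16a1 only just, which was true of 17.2% of all genes. These calls were close to the threshold. Without 8-week replicate 1, 8-week replicate 2, 10-week replicate 1 or 10-week replicate 2, none of the 7 was called, and with only the libraries of these ages in the fit none was called either. From 10 to 12 weeks 0 of the 7 and 0 of all genes were called by edgeR, DESeq2 called 0 of the 7, and none of the 7 had an unadjusted p under 0.05, against 7.52% of all genes. The differences at this step ran from -0.24 for Neurog3 to 0.32 for Slc16a1.

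**Figure D2:**
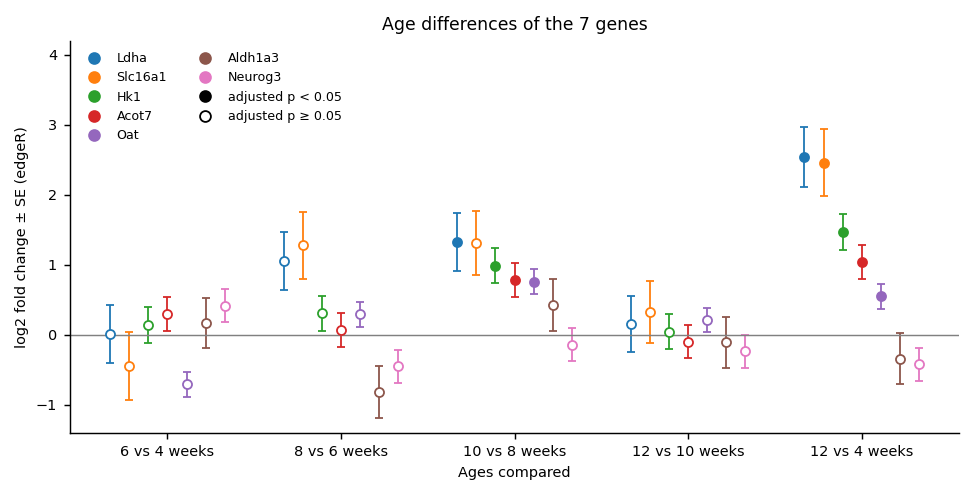
The log2 fold change ± SE (y axis) of the 7 genes in 5 age comparisons (x axis), from a fit of edgeR over all 15 mice; filled points had an adjusted p under 0.05. The filled points lie at 10 against 8 weeks (4 genes) and at 12 against 4 weeks (5 genes), all above 0.

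Leukocyte content changed over the same weeks. A leukocyte score was set for each mouse as the mean log2 CPM of the 22 markers, which include none of the 7 genes. It was 1.91, 0.32 and -0.75 at 4 weeks, -0.09, 0.92 and 2.42 at 6 weeks, and 1.83, 3.95 and 4.54 at 8 weeks. It was 5.97, 5.59 and 4.76 at 10 weeks and 5.60, 5.64 and 5.95 at 12 weeks. All 22 markers were upregulated at 12 against 4 weeks, with a median log2 fold change of 4.65. In that comparison 26.3% of all genes tested were called higher and 27.2% lower. Of the 22 markers 5 were at 0 in 1 or more of the 4-week mice, among them Cd8b1 of cytotoxic T cells and Pax5 of B cells, and no marker was at 0 in an older mouse. Mesenchymal markers moved too, with 7 of 7 upregulated and a summed level of 328 to 561 CPM at 4 weeks against 1277 to 2037 CPM at 12 weeks, and 11 of 12 endocrine reference genes were downregulated. Acinar markers ranged from 1391 to 11960 CPM at 4 weeks and from 3497 to 15714 CPM at 12 weeks, with 0 of 8 called and a median log2 fold change of 0.88. Without 4-week replicate 2, 8 of 8 were called higher, with a median of 2.57. The part of the mesenchymal and acinar transcripts in the levels of the 7 genes was not tested.

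Within an age, mice with a higher leukocyte score had more of the lactate and hexokinase transcripts. With age in the model, log2 Ldha was higher by 0.49 ± 0.07 per unit of the score (SE, adjusted p = 0.000327 by edgeR) and log2 Slc16a1 by 0.59 ± 0.06 (SE, adjusted p = 2.13e-05 by edgeR). Hk1 had a slope of 0.28 ± 0.05 (SE, adjusted p = 0.00145 by edgeR) and Acot7 a slope of 0.23 ± 0.06 (SE, adjusted p = 0.0196 by edgeR). The call for Acot7 was lost without 4-week replicate 1 or 3 or 8-week replicate 1 or 3 (adjusted p = 0.116, 0.0569, 0.0942 and 0.0538 by edgeR). These 4 of 7 stood against 10.2% of all genes with a slope called in either direction and 9.83% with a positive one. No slope passed the test for Oat at 0.10 ± 0.06, for Aldh1a3 at 0.09 ± 0.13 or for Neurog3 at -0.03 ± 0.08 (SE, adjusted p = 0.380, 0.735 and 0.896 by edgeR). Oat was thus called between 4 and 12 weeks but had no slope that passed the test within ages.

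Single mice give examples on both sides. The 8-week mouse with the score of 1.83 had 21.3 CPM of Ldha and 1.93 CPM of Slc16a1, while the other 8-week mice, at scores of 3.95 and 4.54, had 60.5 and 69.5 CPM of Ldha. The 8-week mouse at 4.54 and the 10-week mouse at 4.76, which differed in age but little in score, had 69.5 and 82.1 CPM of Ldha, 5.61 and 5.68 CPM of Slc16a1, 30.03 and 33.8 CPM of Hk1, 18.2 and 22.1 CPM of Acot7, and 33.0 and 34.6 CPM of Oat. For Ldha the highest of the 4-week mice, at 36.8 CPM, was also the mouse with the highest score of its age, but it was above the 6-week mouse with the higher score of 2.42, at 28.5 CPM. At 12 weeks the mouse with the lowest score, 5.60, had the highest Ldha at 161 CPM, Slc16a1 at 13.4 CPM and Acot7 at 30.6 CPM, while the mouse at 5.64 had 107 CPM of Ldha.

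At an equal leukocyte score, 0 of the 7 genes differed between 12 and 4 weeks by edgeR, against 0.0121% of all genes. None of the 7 had an unadjusted p under 0.05, which 9.12% of all genes had. The difference was 0.09 ± 0.42 for Ldha, -0.50 ± 0.37 for Slc16a1, 0.02 ± 0.29 for Hk1, -0.14 ± 0.34 for Acot7 and 0.03 ± 0.35 for Oat (log2 scale ± SE). For Aldh1a3 it was -0.80 ± 0.74 and for Neurog3 -0.29 ± 0.49. The scores of the 4-week and 12-week mice did not overlap, and age accounted for a share of 0.857 of the variance of the score. An equal score was also not an equal makeup of leukocytes, since at an equal score the median difference was -2.22 for the T cell markers, 4.84 for the B cell markers and -0.72 for the myeloid markers, and 16 of the 22 markers had an unadjusted p under 0.05, though 0 were called by edgeR. A change within beta cells and a change in leukocyte content cannot be told apart between these ages.

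**Figure D3:**
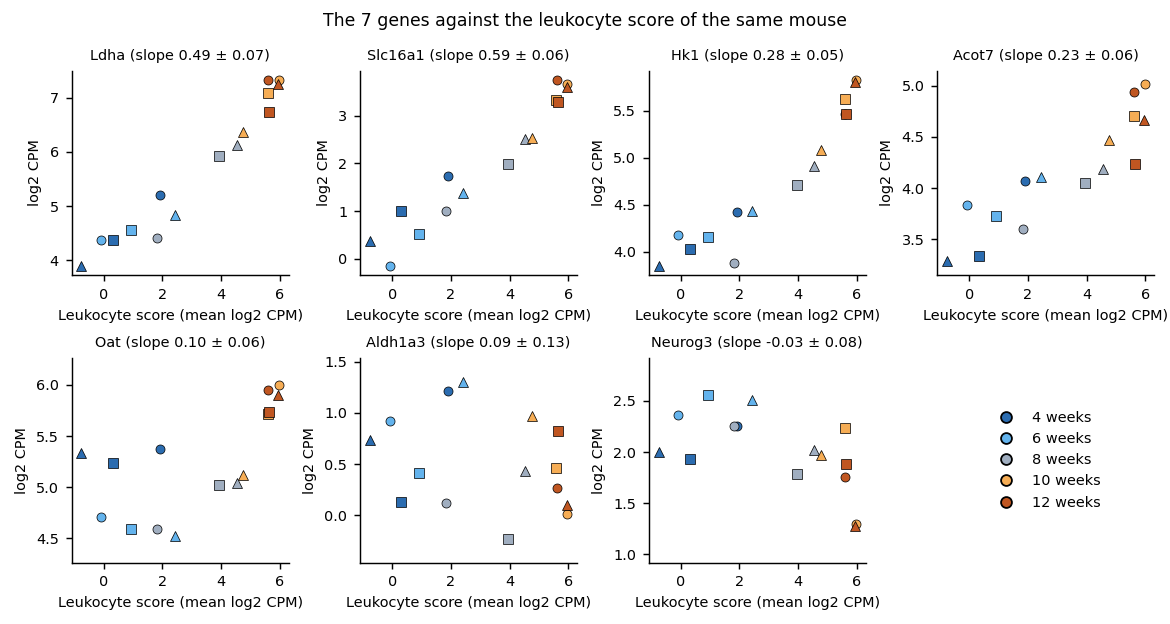
The log2 CPM of each of the 7 genes (y axis) against the leukocyte score of the same mouse (x axis, mean log2 CPM of 22 leukocyte markers); colours are ages, marker shapes the replicate numbers, and the title of each panel gives the slope within ages ± SE. Ldha, Slc16a1, Hk1 and Acot7 were higher where the score was higher, whereas Oat, Aldh1a3 and Neurog3 had no slope past the threshold.

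The 7 genes were also set against the endocrine cells of the same library, by subtracting the mean log2 CPM of 12 endocrine genes, and the 6 mice of 10 and 12 weeks were compared with the 6 of 4 and 6 weeks. Relative to the endocrine genes Slc16a1 was higher in the older mice by 3.27, Ldha by 3.20, Hk1 by 2.09, Acot7 by 1.66 and Oat by 1.495 on the log2 scale. Each of these had an exact permutation p of 0.002165, two-sided, which is the smallest that 6 against 6 mice can give, and an adjusted p of 0.00344 over all genes. All 6 older mice were above all 6 younger mice for these 5 genes. That alone did not set the 5 apart, since 80.7% of all genes were called higher in this way and 62.7% had no overlap. The sizes stood above the median of all genes, which was 0.67. Aldh1a3 was higher by 0.38 (exact permutation p = 0.121) and Neurog3 by 0.18 (exact permutation p = 0.260), and neither passed the test. For Neurog3 the mean relative to endocrine genes was between -7.84 and -7.39 at every age, so that its lower CPM at 12 weeks was no lower relative to these genes.

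**Figure D4:**
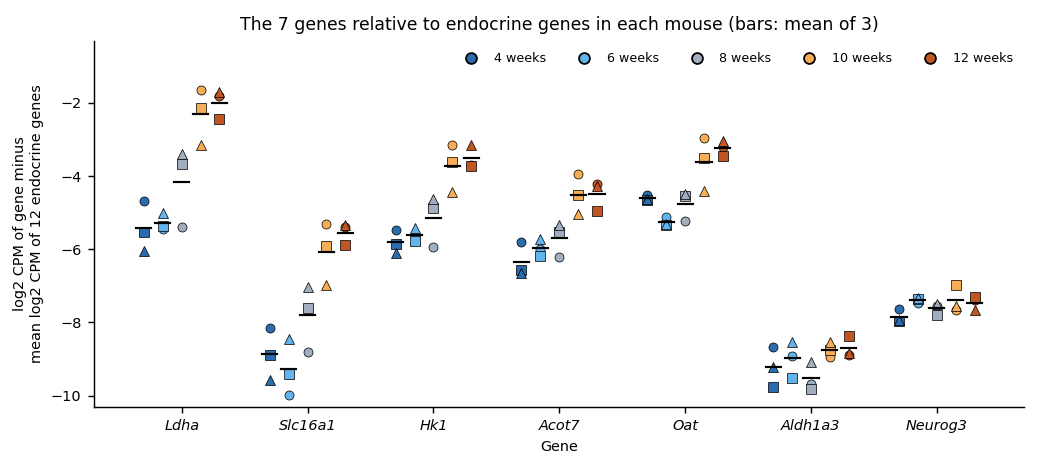
The log2 CPM of each gene minus the mean log2 CPM of 12 endocrine genes in the same mouse (y axis) for the 7 genes (x axis), with points for mice, bars for the mean of 3 and colours for the ages. For Ldha, Slc16a1, Hk1, Acot7 and Oat all 6 mice of 10 and 12 weeks were above all 6 mice of 4 and 6 weeks, while these groups overlapped for Aldh1a3 and Neurog3.

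Each enzyme or transporter was then compared with genes that act at the same step. Lactate dehydrogenase B, encoded by Ldhb, was at 6.78 ± 1.65 TPM at 4 weeks and 11.9 ± 2.63 TPM at 12 weeks (SD, n = 3), and its log2 fold change of 0.42 ± 0.19 did not pass the test (SE, adjusted p = 0.0802 by edgeR), though with plain library totals it was 0.67 and called (adjusted p = 0.0161 by edgeR). Log2 Ldha minus log2 Ldhb was higher by 2.26 in the 6 older mice (exact permutation p = 0.002165, the smallest possible), with all 6 older mice above all 6 younger mice. The ratio of the A to the B form thus rose, as Ldha itself did in these mice. For ratios of a pair of genes, no share over all genes was obtained. The part of leukocyte content in this ratio was not tested.

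Among the other monocarboxylate transporters, Slc16a7, which encodes MCT2, differed by 0.14 ± 0.13 (SE, adjusted p = 0.380 by edgeR), and log2 Slc16a1 minus log2 Slc16a7 was higher by 2.50 in the older mice (exact permutation p = 0.002165). Slc16a3, which encodes the lactate exporter MCT4, rose by 1.58 ± 0.49 (SE, adjusted p = 0.0158 by edgeR) from 0.431 ± 0.192 to 1.69 ± 0.915 TPM (SD, n = 3), with overlapping ages. That call was lost without 4-week replicate 2 or 3 or 12-week replicate 1 or 3, with an adjusted p of up to 0.0663 by edgeR. Slc16a8, which encodes MCT3, was downregulated by a log2 fold change of -0.82. The chaperones that carry these transporters to the membrane also fell, Bsg by a log2 fold change of -0.54 and Emb by one of -0.52. The endocrine reference genes had a median of -0.85 at 12 against 4 weeks, and 27.2% of all genes tested were called lower.

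Beside Hk1, other hexokinases rose as well. Hk2 rose by 2.80 to 3.48 ± 0.715 TPM and Hk3, a hexokinase expressed in myeloid cells, by 3.23 to 7.76 ± 2.63 TPM (log2 fold change, then mean ± SD at 12 weeks, n = 3). The call for Hk3 was lost without 4-week replicate 2 or 3, with an adjusted p of up to 0.0547 by edgeR. Within ages the slope on the leukocyte score was 0.93 for Hk2 and 1.30 for Hk3 (adjusted p = 1.73e-05 and 2.56e-06 by edgeR).

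Beside Aldh1a3, the other retinaldehyde dehydrogenases rose. Aldh1a1 rose by 2.26 ± 0.34 (SE, adjusted p = 0.000375 by edgeR), from 1.86 ± 0.766 to 11.6 ± 3.86 TPM (SD, n = 3). Aldh1a2 rose by 3.97 ± 0.56 (SE, adjusted p = 0.000293 by edgeR), from 0.316 ± 0.188 to 6.64 ± 3.84 TPM. Their slopes on the leukocyte score within ages were 0.09 and 0.32 and did not pass the test (adjusted p = 0.732 and 0.295 by edgeR). Log2 Aldh1a3 minus log2 Aldh1a1 was lower by 1.77 in the older mice, with the late mean at -2.22 and the early mean at -0.45 (exact permutation p = 0.006494), and 5 of 6 older mice were below all younger mice. Genes that act with or after Neurog3 in endocrine differentiation fell, as the endocrine reference genes did. Neurod1 had a log2 fold change of -0.89, Insm1 of -1.06, Rfx6 of -0.85 and Nkx2-2 of -1.01 at 12 against 4 weeks. The 12 endocrine reference genes had a median of -0.85 in that comparison, and 27.2% of all genes tested were called lower.

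Acot7 and Oat were set beside genes of related reactions. Of the other thioesterases Acot9 rose by 1.44 ± 0.23 (SE, adjusted p = 0.000447 by edgeR), while Acot8 at -0.09, Acot11 at -0.10 and Acot13 at -0.14 did not pass the test. Of the genes around ornithine, Odc1, which makes putrescine from it, rose by 0.28, whereas Pycr1, which makes proline, had a log2 fold change of -0.60 and Arg1, which makes ornithine, one of -0.68. The call was lost for Odc1 without 4-week replicate 2 or 3 or 12-week replicate 1 and for Pycr1 without 4-week replicate 3 or 12-week replicate 2 or 3, with an adjusted p of up to 0.109 and 0.110 by edgeR. Arg2 was higher by 4.75 (adjusted p = 0.00823 by edgeR), but without 12-week replicate 1, the mouse with intestinal transcripts, it was higher by 1.38 and not called (adjusted p = 0.152 by edgeR). Over all 26 genes of these steps that could be tested, 9 rose and 11 fell with a median of -0.12. Among all genes tested, 26.3% were called higher and 27.2% lower. Leaving out 4-week replicate 2 or 3 brought the 26 genes to 6 higher and 10 lower. With plain library totals in place of the scaling factors of edgeR they gave 11 higher and 9 lower. The use of plain library totals raised the median of all genes by 0.245 at 12 against 4 weeks.

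**Figure D5:**
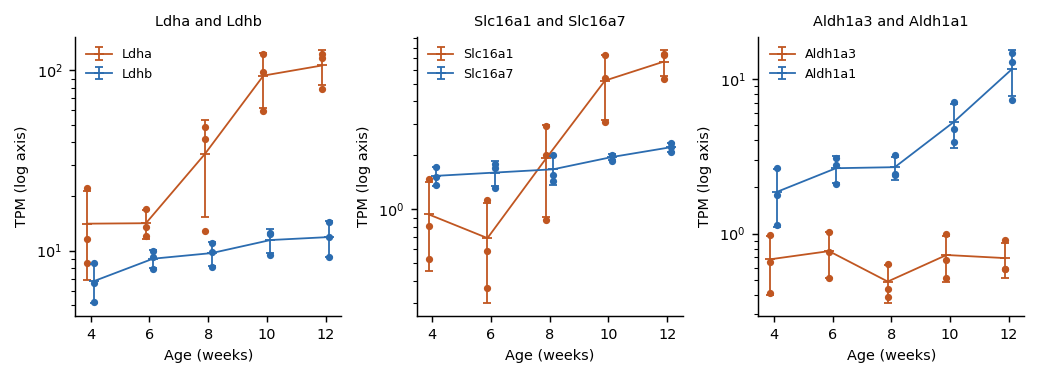
Levels in TPM (y axis, log scale) of Ldha with Ldhb, Slc16a1 with Slc16a7 and Aldh1a3 with Aldh1a1 against age in weeks (x axis); points are mice and lines join the means, with whiskers of ± SD over 3 mice. Ldha and Slc16a1 rose relative to Ldhb and Slc16a7, and Aldh1a1 rose while Aldh1a3 was at 0.682 and 0.694 TPM at the age extremes.

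Further genes of the disallowed group were examined as a list of 14 set from general knowledge of the group. At 12 against 4 weeks 13 of 14 rose and none fell, against 26.3% of all genes called higher and 27.2% called lower. The median log2 fold change was 1.77 against -0.05 over all genes tested. The count of higher genes was 13 with every other scaling, without the filter on low counts and with the replicate block. It was also 13 without any 1 mouse of 4 or 12 weeks. Mice of the other ages were not left out for this count. At an equal leukocyte score 0 of the 14 were called by edgeR. An unadjusted p under 0.05 was found for 4 of the 14, against 9.12% of all genes, and the median of the 14 was 0.41. The largest log2 fold changes at 12 against 4 weeks, without the score as a covariate, were as follows. Arhgdib, a regulator of small GTPases in blood cells, was at 4.07. Pdgfra, the platelet-derived growth factor receptor of mesenchymal cells, was at 3.45, and Maf, a transcription factor, at 3.26. They were followed by Rest, a repressor of neuronal genes, at 2.72, Zfp36l1, an RNA-binding protein, at 2.62, and Igfbp4, which binds insulin-like growth factors, at 2.31. Mgll, a lipase of monoacylglycerols, did not pass the test at -0.02. Within ages 10 of the 14 had a positive slope on the leukocyte score that passed the test, against 9.83% of all genes. Arhgdib had the steepest of the 6 named, at 1.03, and Igfbp4 at 0.22 was not called (adjusted p = 0.0744 by edgeR).

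Of 10 further progenitor and dedifferentiation genes, 6 could be tested, since Gast, Cck, Pou5f1 and Nanog did not pass the filter on low counts. Here 3 rose and none fell, with a median of 0.30, against 26.3% of all genes called higher and 27.2% called lower. The 3 were Mycl, at a log2 fold change of 2.00, Myc, at 1.87, and Klf4, at 0.48. The call for Klf4 was lost without 4-week replicate 1 (adjusted p = 0.0573 by edgeR). Sox9, a factor of ducts and progenitors, at 0.12, Hes1, an effector of Notch, at -0.17, and Slc5a10 at -0.69 did not pass the test. Myc was at 3.08 ± 0.248 TPM at 4 weeks and 14.8 ± 2.71 TPM at 12 weeks (SD, n = 3), with a slope on the leukocyte score of 0.22 that was not called (adjusted p = 0.0784 by edgeR).

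The glycolytic genes did not move as a block. Of 16 tested, 7 rose and 4 fell at 12 against 4 weeks, with a median of 0.07. Over all genes tested, 26.3% were called higher and 27.2% lower. With plain library totals 9 of the 16 rose and 2 fell. Without 12-week replicate 1 these counts were 6 and 5. Pfkp, a phosphofructokinase, rose by 1.36, the high-affinity glucose transporter Slc2a3 by 1.11 and the enolase Eno1 by 0.65, while Pfkm, the muscle-type phosphofructokinase, had a log2 fold change of -0.73 and the aldolase Aldoc one of -0.82.

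The genes whose log2 CPM ran most like each member over the 15 mice are given as a description, since all of them share the same libraries and the same rise in leukocyte content. For Ldha they were Tgm2 (Pearson r = 0.997), Mmp14 (0.995) and Arpc1b (0.994), and for Slc16a1 they were Trim30b (0.993), Slc11a1 (0.989) and Gimap1 (0.989). Hk1 ran closest to Kcnab2 (0.994), Sh3bgrl3 (0.994) and Fam53b (0.992). For Acot7 the nearest were Gpi1 (0.975), Mvp (0.971) and Sectm1a (0.965), and for Oat they were Fam111a (0.980), Tagln2 (0.969) and Mcm4 (0.968). The likeness was lower for Neurog3, nearest to Urod (0.926), D330023K18Rik (0.924) and Inafm1 (0.915), and lowest for Aldh1a3, nearest to Dcaf13 (0.814), Pip5k1a (0.803) and Apba2 (0.798). With the leukocyte score itself r over the 15 mice was 0.973 for Ldha, 0.966 for Slc16a1, 0.946 for Hk1, 0.899 for Acot7, 0.657 for Oat, -0.273 for Aldh1a3 and -0.606 for Neurog3.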

How the data were processed

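Islet RNA of 15 NOD females, 3 at each of 5 ages, was sequenced on a Novaseq (PE150). The authors trimmed, aligned (mm10, per the submitters' processing notes) and counted the reads in CLC Genomics Workbench 23.0 and deposited raw counts per gene. The deposited TPM values were used for levels between genes. Deposited RPKM and the authors' CPM (unit read as a score), 30 columns together, were not used.

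The 7 genes and the gene lists were chosen with earlier results of these data known. Counts were filtered with filterByExpr (16554 of 48709 genes), TMM-normalised and fitted over all 15 mice with the quasi-likelihood test of edgeR 4.0.16 (R 4.3.3), and p-values were adjusted by Benjamini-Hochberg over all genes tested. CPM used TMM-scaled totals, and log2 CPM a prior count of 2. The leukocyte score was the mean log2 CPM of 22 of 23 listed markers, the other not analysed here. Values relative to endocrine genes and ratios of a pair of genes, 11 in all, were compared by two-sided exact permutation tests, and those of the 7 genes were also adjusted over all genes tested. Alternatives, including DESeq2 1.42.0, are given in the closing section, and the scripts were tested on simulated data. Named genes were the 7, those of the same steps, up to 6 with the largest change per list, and the 3 nearest by Pearson r. Each mouse was taken as a replicate. Intervals of depth cover counting error only. Some genes of the lists are counted but not reported by name here.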

Additional observations from a re-analysis of the deposited data

How the results depend on the processing

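The replicate numbers did not pair the mice. The mean correlation of deviations between mice of the same number was -0.01 for 12 against 4 weeks, -0.34 for 6 against 4, 0.29 for 8 against 6, -0.25 for 10 against 8 and -0.15 for 12 against 10 weeks. With the replicate number as a block, 0 of the 7 genes were called at 10 against 8 weeks in place of 4, Oat at an equal leukocyte score was at -0.033, and the other counts of called genes stayed within 1.5 times of those reported.

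At 10 against 8 weeks, of the 7 genes 2 were called without a filter on low counts, 0 with only these ages in the fit, 0 by the exact test of edgeR, 0 with the leukocyte score as a covariate and 5 by DESeq2, which also called Slc16a1 (adjusted p = 0.0204). At 6 against 4 weeks 1 of the 7, Oat, was called with only these ages, by the exact test and by DESeq2 (adjusted p = 0.00911, 1.21e-08 and 0.0180). At 12 against 4 weeks 0 of the 7 were called with the leukocyte score as a covariate. Relative to endocrine genes and to their partners, 0 and 0 were called with 12 and 4 weeks alone, where 3 against 3 mice cannot give an exact p under 0.1.

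With the leukocyte score as a covariate these values changed sign: Slc16a1 (-0.50) and Acot7 (-0.14) at 12 against 4 weeks, Ldha (-0.17) and Hk1 (-0.008) at 6 against 4, Ldha (-0.25), Slc16a1 (-0.11), Hk1 (-0.41) and Acot7 (-0.50) at 8 against 6, and Hk1 (-0.02) at 12 against 10. At an equal score Acot7 was at 0.023 with the score from Ptprc alone and Hk1 at -0.04 without the myeloid markers. The cause was not tested.

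Each mouse was left out in turn, and for a comparison of consecutive or extreme ages only the mice of the ages compared. This gave these numbers of called genes among the 7: 4 to 5 at 12 against 4 weeks, 0 to 1 at 8 against 6, 0 to 5 at 10 against 8, 5 to 6 for any age, and 3 to 4 for the slope on the leukocyte score, where the 1 lost was Acot7. At 8 against 6 weeks the 1 was Ldha, without 8-week replicate 1. Values whose sign changed ranged as follows. At 6 against 4 weeks they were from -0.24 to 0.46 for Ldha and from -0.082 to 0.47 for Aldh1a3, at 8 against 6 weeks from -0.057 to 0.22 for Acot7, and at 10 against 8 weeks from -0.37 to 0.077 for Neurog3. At 12 against 10 weeks they were from -0.084 to 0.36 for Ldha, from -0.14 to 0.21 for Hk1, from -0.28 to 0.066 for Acot7, from -0.003 to 0.41 for Oat and from -0.37 to 0.18 for Aldh1a3. At an equal leukocyte score they were from -0.37 to 0.54 for Ldha, from -0.23 to 0.29 for Hk1, from -0.38 to 0.23 for Acot7, from -0.21 to 0.26 for Oat, from -1.09 to 0.027 for Aldh1a3 and from -0.60 to 0.18 for Neurog3. The slope on the score ranged from -0.011 to 0.14 for Aldh1a3 and from -0.084 to 0.034 for Neurog3.

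Ldha, Slc16a1, Hk1 and Acot7 stayed called and higher at 12 against 4 weeks under every alternative run except the leukocyte score as a covariate. Depth limits Aldh1a3 most, at 22 to 61 reads per mouse. With 3 mice an age and leukocyte content rising with age, these libraries cannot separate the cell types from which the transcripts came.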
